A study of Bos taurus with 29 samples.

Results

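Prolactin (PRL, ENSBTAG00000015274) and the alpha polypeptide of the glycoprotein hormones (CGA, ENSBTAG00000016138) are hormone genes of the anterior pituitary, and their transcripts were measured here in brain tissue, the hypothalamus of heifer calves. Both genes were chosen by name, as the identifiers that the study's supplementary lists pair with these symbols, and they are 2 of the 24596 genes in the table. The tissue was the remaining hypothalamus, that is the hypothalamus after the arcuate nucleus (ARC) had been cut away, collected from 29 Angus x Holstein-Friesian heifer calves at 21 weeks of age. The calves had been fed a high (HI, n = 14) or a moderate (MOD, n = 15) plane of nutrition, and each calf gave 1 library of polyadenylated RNA.

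HI calves were fed to gain 1.2 kg per day, with 1.5 kg of milk replacer in 10 litres and concentrates without limit. MOD calves were fed to gain 0.5 kg per day, with 0.5 kg of milk replacer in 4 litres and 1 kg of concentrates. A calf phase of 8 weeks was followed by a post-weaning phase of 11 weeks in which hay was given to both groups. The labels put the start of the diets in week 2 of life and the methods give a later week. Calves are named here by diet and by the calf number of the labels, and only healthy calves with a growth rate near the mean of their diet had been taken for sequencing.

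Prolactin is secreted by the lactotropes of the anterior pituitary and acts on the mammary gland, on maternal behaviour and on the hypothalamic control of reproduction. The hypothalamus holds lactotropes in check with dopamine, while thyrotropin-releasing hormone stimulates them. CGA encodes the subunit that luteinising hormone, follicle-stimulating hormone and thyroid-stimulating hormone have in common, and is made by gonadotropes and thyrotropes, whereas the beta subunits give each hormone its identity. The pituitary hangs from the base of the hypothalamus by its stalk. In bulk tissue, fewer cells of a type and less RNA per cell cannot be told apart.

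Expression is given in CPM, that is reads of a gene scaled to a common library size after correction by TMM (trimmed mean of M-values), and the reads behind each value could be recovered. A calf had 11820640 to 17206435 reads in all. PRL exceeded 1 CPM in 27 of the 29 calves and CGA in 20, so that both were among the 13785 genes tested, which had to exceed 1 CPM in 14 calves or more. The annotation of the build used for the files, UMD3.1, was not used here, and neither coordinates nor sequences are given. The libraries of 4 calves, MOD calves 1689, 1395 and 2551 and HI calf 2120, lay apart from the rest over all genes, with mean distances of 3.13 to 3.51 on the log2 scale against at most 2.44 for any other calf. Results that rest on these 4 calves are given with and without them.

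The sequencing file of each calf carried a prefix of 6, 7, 8, 9 or 10 in its name, and what the prefix stands for is not given in the sources used here. It ran in the order of the calf numbers, so that prefix and calf number cannot be told apart. Prefixes 6 to 9 held 6 calves each and prefix 10 held 5, with calves of both diets under each.

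PRL was among the most variable transcripts of the tissue, from 0 reads in 2 calves to 790 reads in HI calf 3148. Its SD over the 29 calves was 1.46 on the log2(CPM + 1) scale, at percentile 99.4 of the 13785 genes tested, where the median SD was 0.43. CGA had an SD of 0.66, at percentile 80.1. In HI calves, PRL had 1.71 CPM in the lowest calf, a median of 14.8 CPM and 46.8 CPM in the highest, with a mean of 19.9 ± 15.6 CPM (SD, n = 14). In MOD calves, it had 0 CPM in the lowest, a median of 7.29 CPM and 28.6 CPM in the highest, with a mean of 11.2 ± 10.2 CPM (SD, n = 15). The diets overlapped over most of their range. The MOD median was exceeded in 9 of 14 HI calves, 4 HI calves lay above the highest MOD calf, and 2 MOD calves lay below the lowest HI calf.

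The 2 calves without a PRL read were MOD calves 1057 and 2532. Their libraries held 13723597 and 14059623 reads, so that a count of 0 allows up to 0.213 and 0.191 CPM (3 reads), which covers counting error only. CGA was detected in both, with 14 reads in calf 1057 and 3 reads in calf 2532. Among the other 27 calves, the lowest PRL value was that of HI calf 553, with 21 reads.

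Tested with limma on the log2(CPM + 1) scale, PRL had an HI to MOD log2 fold change of 0.90 (SE 0.50, 95% confidence interval -0.12 to 1.91, p = 0.0825, adjusted p = 0.999). It was the 6th highest of 13785 log2 fold changes, and stood at rank 344 by p-value. A gene was called where its fold change exceeded 1.5 with an adjusted p-value under 0.10. PRL was not called, and neither was any other gene by limma (0%, with 1.3% of genes at an unadjusted p-value under 0.05) or by the quasi-likelihood test of edgeR. DESeq2 called 2 genes (0.0145%) and the tagwise exact test called 1, and neither called PRL or CGA. A permutation test of the diets on the same difference gave p = 0.0986 (two-sided, 100000 permutations). PRL is on the study's own list of diet genes, which was drawn from these same libraries, so its difference is not independent evidence. The study used exact tests and reports PRL as higher in HI calves in this tissue. On the recovered reads, the tagwise exact test gave PRL a log2 fold change of 0.82 (p = 0.103) and did not call it. The cause of this disagreement was not tested. With limma-voom and sample quality weights, the log2 fold change of PRL was 1.88 (p = 0.0331, adjusted p = 0.358), and without the 4 calves that lay apart it was 1.03 (p = 0.0694, adjusted p = 0.846 by limma).

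CGA was detected in all 29 calves, at 3 to 77 reads. In HI calves, CGA had 0.312 CPM in the lowest calf, a median of 2.09 CPM and 4.15 CPM in the highest, with a mean of 2.20 ± 1.37 CPM (SD, n = 14). In MOD calves, it had 0.191 CPM in the lowest, a median of 1.45 CPM and 5.53 CPM in the highest, with a mean of 1.74 ± 1.33 CPM (SD, n = 15). The highest MOD calf was above every HI calf, while 9 of 14 HI calves exceeded the median of MOD.

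For CGA the log2 fold change was 0.21 (SE 0.24, 95% confidence interval -0.27 to 0.70, p = 0.372, adjusted p = 0.999 by limma), and the permutation test of the diets gave p = 0.387. A difference of more than 0.70 on the log2(CPM + 1) scale in favour of HI thus lay outside the interval. The symbol of CGA came from the list of diet genes of the ARC, which was not analysed here. At these levels the added count of 1 compresses the difference, and with 0.1 in its place the log2 fold change of CGA was 0.33 (p = 0.41, adjusted p = 1.00 by limma). Without MOD calf 2532, whose CGA was the lowest of all, it was 0.14.

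**Figure D1:**
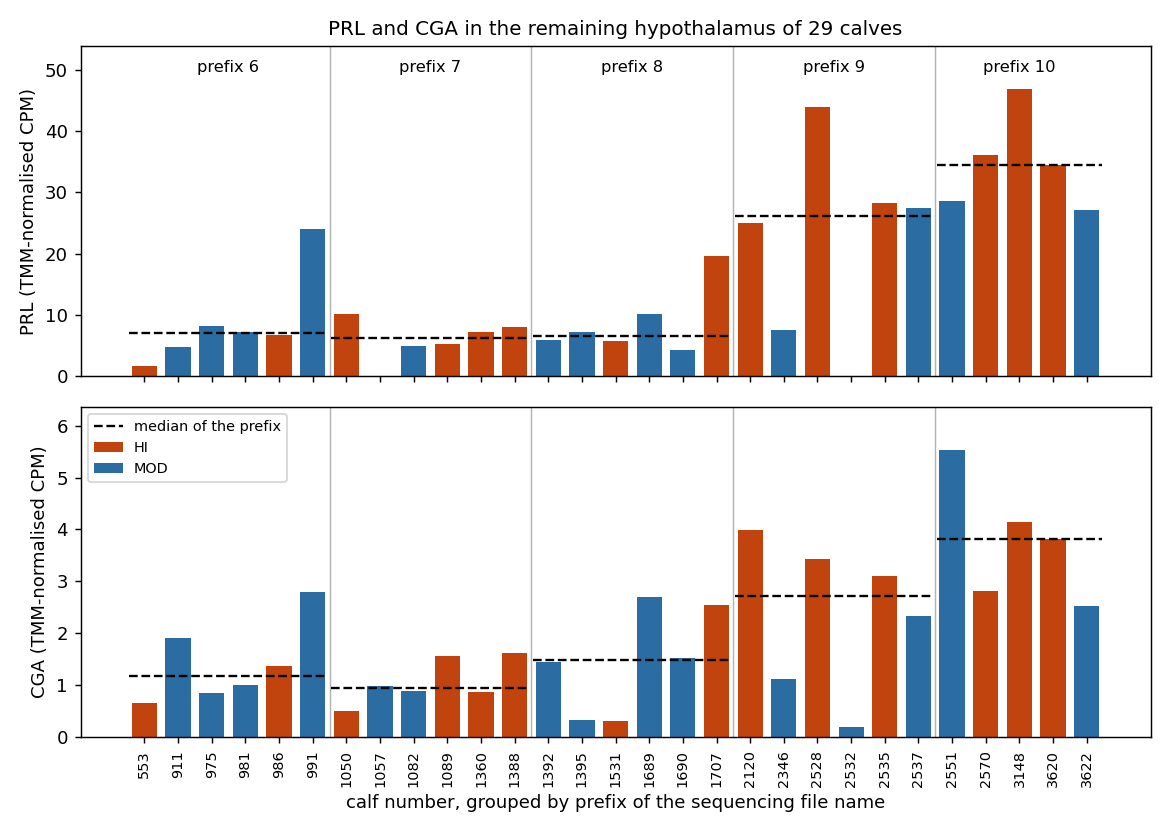
TMM-normalised CPM of PRL (top) and CGA (bottom) in each of the 29 calves, in the order of the calf numbers and split by the prefix of the sequencing file name. Bars are coloured by diet and dashed lines mark the median of each prefix, which for PRL is between 6.29 and 7.02 CPM under prefixes 6 to 8 and 26.2 and 34.5 CPM under prefixes 9 and 10.

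Both genes were also read against the prefix, and prefixes 9 and 10 are set beside the others because their values were seen to be higher. Under prefix 6, PRL had 1.71 CPM in the lowest calf, a median of 7.02 CPM and 24.0 CPM in the highest. Under prefix 7 the same values were 0, 6.29 and 10.1 CPM, and under prefix 8 they were 4.28, 6.59 and 19.5 CPM. Calves under the later prefixes were higher on the whole. Under prefix 9, PRL was 25.0, 43.9 and 28.2 CPM in HI calves 2120, 2528 and 2535, and 7.56, 0 and 27.4 CPM in MOD calves 2346, 2532 and 2537. Under prefix 10, it was 36.1, 46.8 and 34.5 CPM in HI calves 2570, 3148 and 3620, and 28.6 and 27.1 CPM in MOD calves 2551 and 3622. The 8 calves with the most PRL, 5 HI and 3 MOD, were all under prefixes 9 and 10, which held 11 calves in all.

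CGA followed the same course. Its median was 1.19 CPM under prefix 6, 0.944 CPM under prefix 7 and 1.49 CPM under prefix 8, with ranges of 0.653 to 2.79, 0.498 to 1.63 and 0.312 to 2.70 CPM. Under prefix 9, CGA was 4.00, 3.43 and 3.11 CPM in HI calves 2120, 2528 and 2535, and 1.13, 0.191 and 2.35 CPM in MOD calves 2346, 2532 and 2537. Under prefix 10, it was 2.81, 4.15 and 3.82 CPM in HI calves 2570, 3148 and 3620, and 5.53 and 2.54 CPM in MOD calves 2551 and 3622. Of the 8 calves with the most CGA, 7 were under prefixes 9 and 10.

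Once this pattern had been seen, the prefixes were compared across all genes with diet in the model, as a test on the data in which it was noticed. PRL had an F value of 4.35 (p = 0.00794, adjusted p = 0.998 by limma) and stood at rank 4 of 13785 genes by p-value. CGA had an F value of 4.07 (p = 0.0107, adjusted p = 0.998 by limma) and stood at rank 9. No gene was called at an adjusted p-value under 0.10 by limma or by the quasi-likelihood test of edgeR (0% each), with 53 and 79 genes at an unadjusted p-value under 0.05. By the quasi-likelihood test, PRL stood at rank 20 (p = 0.017, adjusted p = 1.00) and CGA at rank 30 (p = 0.0227, adjusted p = 1.00). Neither gene thus passed the threshold between prefixes. With 0.1 in place of 1 added before the logarithm, PRL had an F value of 2.41 (p = 0.075, adjusted p = 0.997 by limma) at rank 114 and CGA 2.77 (p = 0.0483, adjusted p = 0.997 by limma) at rank 49. The test was sensitive to single calves: the F value of PRL was 9.21 without MOD calf 2532 and 3.51 without MOD calf 2551, and that of CGA was 6.22 and 2.77. Without the 4 calves that lay apart, PRL was at rank 228 (p = 0.0312) and CGA at rank 303 (p = 0.0402), among 385 genes at an unadjusted p-value under 0.05.

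Diet was compared within each prefix, as means on the log2(CPM + 1) scale. For PRL, HI minus MOD was -1.16 under prefix 6, 1.79 under prefix 7, 0.64 under prefix 8, 2.38 under prefix 9 and 0.46 under prefix 10. HI calves lay wholly above MOD calves under prefix 7 (4 HI and 2 MOD calves) and prefix 10 (3 HI and 2 MOD calves), and the groups overlapped under the others. Groups this small can separate easily, and the share of all genes that did so was not determined. The 2 largest differences were those of the prefixes that held the calves without a PRL read. For CGA, HI minus MOD was -0.35, 0.10, -0.12, 1.14 and -0.08 under prefixes 6 to 10. The diets did not overlap under prefix 9, with 3 calves each and the same limit. With the prefix as a factor in the model, the log2 fold change between diets was 0.87 for PRL (p = 0.0547, adjusted p = 1.00 by limma) and 0.17 for CGA (p = 0.428, adjusted p = 1.00 by limma).

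**Figure D2:**
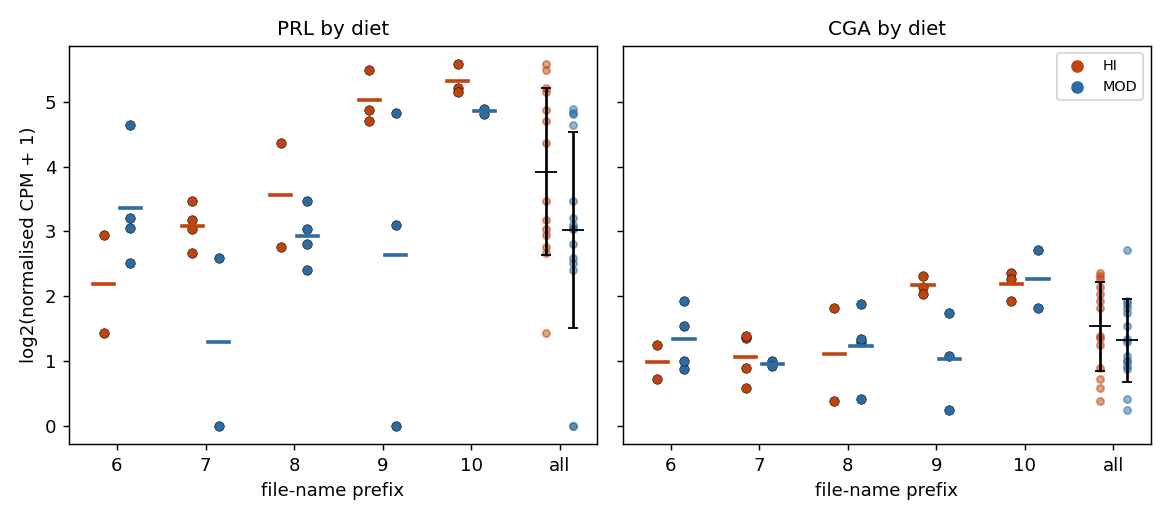
Log2(normalised CPM + 1) of PRL (left) and CGA (right) in HI and MOD calves under each file-name prefix and in all 29 calves. Points are calves, coloured bars are group means within a prefix, and the black bars at the right give mean and SD of 14 HI and 15 MOD calves; HI means lie above MOD means under 4 of 5 prefixes for PRL and 2 of 5 for CGA.

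PRL and CGA were high in the same calves. Over the 29 calves, Pearson's r between them on the log2(CPM + 1) scale was 0.78 (permutation p = 1e-05, the smallest that 100000 permutations can give) and Spearman's rho was 0.76 (permutation p = 1e-05). Of the 12 calves with the most PRL and the 12 with the most CGA, 11 were the same calves. PRL left a gap between 10.1 and 19.5 CPM, with 18 calves below it and 11 above. The 11 calves had 2.35 to 5.53 CPM of CGA and the 18 had 0.191 to 2.70 CPM, with 1 of them, MOD calf 1689, above the lowest of the 11. On the log2(CPM + 1) scale this gap was 0.89 wide, against 1.44 between the calves without a PRL read and the next, while neighbouring CGA values lay at most 0.34 apart. The r of 0.78 spans the gap, and the relation was not shown on either side of it. Pearson's r was 0.34 in the 18 calves (permutation p = 0.171, rho 0.14) and 0.36 in the 11 calves (permutation p = 0.27, rho 0.52). The division was made on PRL itself after the values were seen. It narrows the range of PRL on each side, which tends to lower r, and leaves few calves. These 2 values therefore cannot decide whether the relation holds on either side. The 2 calves farthest from the PRL median were those without a PRL read, and without them r was 0.80.

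The gap lay within both diets, and r over each diet spans it too. Pearson's r was 0.86 in HI calves (n = 14, permutation p = 2e-04, adjusted p = 0.0012 over 6 subsets of calves) and 0.72 in MOD calves (n = 15, permutation p = 0.00248, adjusted p = 0.00744). Spearman's rho was 0.82 and 0.66 (permutation p = 6e-04 and 0.00856). Within prefixes of 6 calves it was less even. Pearson's r was 0.95 under prefix 9 (exact permutation p = 0.0181, adjusted p = 0.0361), 0.73 under prefix 6 (exact permutation p = 0.114), 0.55 under prefix 8 (exact permutation p = 0.263) and -0.068 under prefix 7 (exact permutation p = 0.865). Spearman's rho was 0.66, 0.43, 0.54 and -0.26 in the same order. No r is given for prefix 10, which held fewer than 6 calves. There MOD calf 2551 had the most CGA and the second lowest PRL. With the mean of each prefix subtracted, r over the 29 calves was 0.64 (permutation p = 2.1e-04) and rho 0.58 (permutation p = 0.00118). Without the 4 calves that lay apart, r was 0.81.

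**Figure D3:**
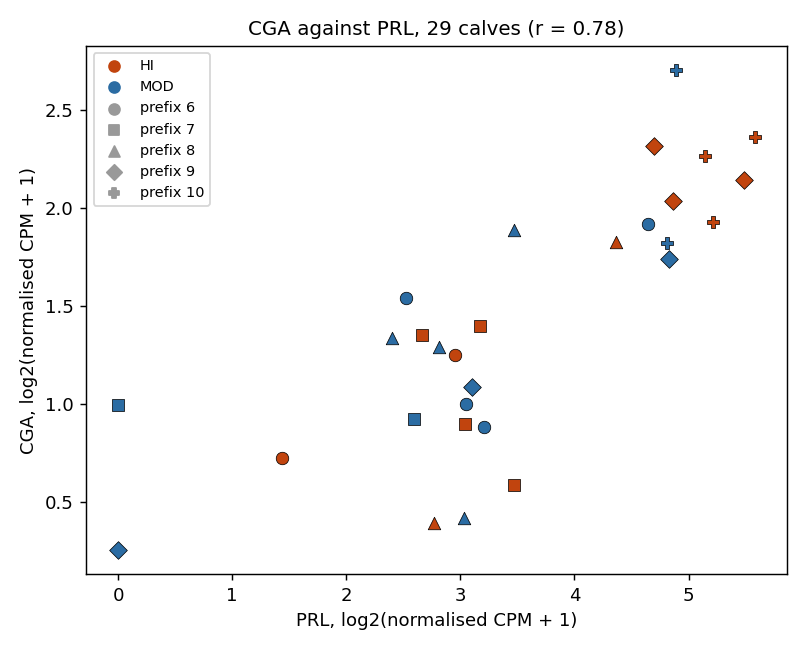
CGA against PRL in 29 calves, both as log2(normalised CPM + 1), coloured by diet and with a marker for each file-name prefix. The points rise together over all calves (r = 0.78), with a gap in PRL between 18 lower and 11 higher calves, with the calves of prefix 10 at the upper right and MOD calf 2532 at the lower left.

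The number of CGA reads per 100 PRL reads, a ratio of reads that takes no account of transcript length, was computed in the 27 calves with a PRL read. It ran from 4.67 to 40.3 with a median of 13.0. Its median was 11.5 in HI and 14.9 in MOD calves. Calves under prefixes 6 to 8 had a median of 17.8 and a range of 4.67 to 40.3, and those under prefixes 9 and 10 had 10.2 and 7.78 to 19.3. The ratio was thus spread most widely where both counts were low. HI calf 1050, with 10.1 CPM of PRL and 0.498 CPM of CGA, and MOD calf 1689, with 10.1 and 2.70 CPM, had nearly the same PRL level and CGA levels far apart. Calf 1689 was 1 of the 4 calves that lay apart, however, and calf 1050 had only 7 reads of CGA.

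Each gene was compared with all other 13784 genes past the filter by Pearson's r over the 29 calves, which spans the gap in PRL. CGA was the second nearest gene to PRL, and PRL the second nearest to CGA. The nearest gene to both was ENSBTAG00000017220, which the files do not pair with a symbol, with r = 0.93 to PRL and r = 0.85 to CGA. It had 0 CPM in the lowest calf, MOD calf 1057, a median of 13.2 CPM and 56.9 CPM in the highest. MOD calf 2532, the other calf without a PRL read, had 1 read of it. Under prefix 9 and prefix 10 its medians were 30.3 and 41.3 CPM, against 5.92 to 11.8 CPM under the others.

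Few genes passed an adjusted threshold with PRL, and many passed with CGA only while 4 calves were included. With PRL, 3 genes (0.0218%) passed an adjusted p-value under 0.05 over all genes by permutation, all 3 with a positive r and CGA among them, and 3 did so without the 4 calves that lay apart. With CGA, 3860 genes (28%) passed, of which 1902 had a positive and 1958 a negative r. Without the 4 calves, 0 genes passed with CGA by the same permutation test. At an unadjusted p-value under 0.05 by permutation, CGA had 6371 genes over 29 calves and 805 without the 4 calves. PRL had 1370 and 1245 such genes, and so more than CGA without the 4 calves. Without the 4 calves, the smallest p-value that the permutations can give, 1e-05, adjusted to 0.0689 with CGA. PRL and ENSBTAG00000017220 had this value, so that neither could pass. Their r with CGA was 0.81 and 0.86 without the 4 calves, against 0.78 and 0.85 over 29 calves. With PRL, the 3 genes that passed without the 4 calves had an adjusted p-value of 0.0459. The counts of 0 and 3 therefore cannot show whether CGA and PRL differ, as the permutations set the limit. MOD calves 1689 and 2551 and HI calf 2120 had 2.70, 5.53 and 4.00 CPM of CGA, and MOD calf 1395 had 0.335 CPM.

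Of the genes with a symbol, those nearest to PRL after CGA were ORM1, an acute phase protein of plasma (r = 0.56, permutation p = 0.00173, adjusted p = 0.4), and ARHGEF16, a guanine nucleotide exchange factor (r = 0.46). HLA-B, a class I antigen-presenting molecule, followed with r = 0.45, and C1QTNF5, a secreted C1q-related protein, with r = 0.42. ORM1 ran from 0 to 103 CPM with a median of 0.895 CPM. None of these 4 genes passed an adjusted p-value under 0.05 with PRL. Those nearest to CGA after PRL were C1QTNF5 (r = 0.57), ISOC2 (r = 0.56), POMC (r = 0.54) and ORM1 (r = 0.50). With CGA these 4 had adjusted p-values of 0.0258 to 0.0335 by permutation, and of 0.763 to 0.764 without the 4 calves that lay apart. The lowest r was -0.62 for PRL (ENSBTAG00000020440) and -0.72 for CGA (ENSBTAG00000002440), both without a symbol.

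Of 14 genes listed for the anterior pituitary, PRL, CGA and POMC could be named in the table. The genes of growth hormone, of the beta subunits of the gonadotropins and of thyroid-stimulating hormone, and of the pituitary transcription factors carry no symbol in the sources used here, and could not be picked out among the genes compared. The presence or absence of the other hormone-producing cells was therefore not tested. The summed level of the 3 named genes was 15.7 to 124 CPM over all calves, with medians of 39.2 CPM in HI and 25.7 CPM in MOD. Its median was 24.8 to 26.4 CPM under prefixes 6 to 8, 54.4 CPM under prefix 9 and 64.5 CPM under prefix 10. The sum holds PRL and CGA, whose own values had set prefixes 9 and 10 apart, so it is no separate evidence on prefix or diet. POMC, the only other gene in it, is described next.

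POMC, the precursor of adrenocorticotropin and of the melanocortins, is made both by pituitary corticotropes and melanotropes and by neurons of the ARC. It had 11.2 CPM in the lowest calf, a median of 17.7 CPM and 94.7 CPM in the highest. Its median was 17.2 to 18.2 CPM under prefixes 6 to 8, 16.7 CPM under prefix 9 and 23.9 CPM under prefix 10 (F test between prefixes, p = 0.862, adjusted p = 0.998 by limma). Its r with PRL was 0.29 (permutation p = 0.131, adjusted p = 0.405) and rho was 0.36 (permutation p = 0.0574). With CGA, its r was 0.54 (permutation p = 0.00184, adjusted p = 0.0259) and rho was 0.49 (permutation p = 0.00738). HI calf 2120 and MOD calves 1689 and 2551 had the 3 highest POMC values, 94.7, 89.9 and 61.7 CPM, and the r of POMC and CGA was 0.30 without the 4 calves (permutation p = 0.153, adjusted p = 0.764). Between diets, POMC had a log2 fold change of 0.0043 (SE 0.27, p = 0.987, adjusted p = 0.999 by limma).

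CHGA encodes chromogranin A, a protein of the granules of endocrine cells and neurons. It had 59.7 CPM in the lowest calf, a median of 315 CPM and 946 CPM in the highest, and its r was 0.19 with PRL (adjusted p = 0.531 by permutation) and 0.48 with CGA (adjusted p = 0.0357 by permutation). MOD calves 1689 and 2551 and HI calf 2120 had the 3 highest CHGA values and MOD calf 1395 the lowest, and without these 4 calves the r of CHGA and CGA was 0.06. TRHDE encodes the ectoenzyme that degrades thyrotropin-releasing hormone, which drives prolactin and thyroid-stimulating hormone. It had 1.39 CPM in the lowest calf, a median of 14.1 CPM and 51.6 CPM in the highest, and its r was -0.0024 with PRL and -0.09 with CGA. Between diets, TRHDE had a log2 fold change of 0.85 (SE 0.44, p = 0.0647, adjusted p = 0.999 by limma).

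The tissue label was read against genes that hypothalamic neurons are known for. Vasopressin and oxytocin (AVP and OXT) are made by magnocellular neurons, whose axons end in the posterior pituitary. AVP had 0 CPM in the lowest calf, a median of 1.19 CPM and 3472 CPM in the highest, and OXT had 0, 3.1 and 1070 CPM. Orexin (HCRT) and melanin-concentrating hormone (PMCH) are made in the lateral hypothalamus. HCRT had 0, 0.816 and 192 CPM, and PMCH had 0.067, 6.18 and 389 CPM. NKX2-1, a transcription factor of the developing and adult ventral hypothalamus and of the pituitary stalk, had 0, 0.737 and 15.0 CPM and did not pass the filter. The 4 peptide genes were thus near 0 in some calves and abundant in others, while NKX2-1 was low in most calves and reached 15.0 CPM at most.

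The r of these peptide genes with PRL and CGA was low. AVP had an r of -0.19 with PRL and -0.16 with CGA, and OXT had -0.13 and -0.10. HCRT had 0.28 and 0.20, and PMCH had 0.32 and 0.25. None of these 8 values passed an adjusted p-value under 0.05 by permutation, and the unadjusted values were 0.0902 or more. The 2 MOD calves without a PRL read differed in these genes: calf 2532 had 336 CPM of AVP and 15.0 CPM of NKX2-1, the highest of all calves for the latter, while calf 1057 had 0.213 CPM of AVP and 0 CPM of NKX2-1. The summed level of AVP and OXT ran from 1.07 to 1178 CPM under prefix 6 and from 0.48 to 383 CPM under prefix 10. Its highest value was 20.3 CPM under prefix 7, 1883 CPM under prefix 8 and 4542 CPM under prefix 9. For HCRT and PMCH, the summed level had medians of 1.85, 7.38, 41.4, 8.76 and 105 CPM under prefixes 6 to 10. In the F test between prefixes by limma, HCRT had p = 0.264 and PMCH p = 0.512 (adjusted p = 0.998 for both). The part of differences in dissection in the PRL and CGA levels was not tested.

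Over 11 lists of 56 genes, 43 had an identifier and 33 genes besides PRL and CGA passed the filter. With PRL, 0 of 33 passed an adjusted p-value under 0.05 by permutation, against 0.0218% of all genes, and the median r was -0.06 against 0.01. At an unadjusted p-value under 0.05 by permutation were 3 of the 33, a share close to that of all genes, 1370 of 13784. These 3 were GAD2, which makes GABA in inhibitory neurons (r = -0.39), CACNA1E, a neuronal calcium channel (r = -0.37), and PYGM, the glycogen phosphorylase of muscle (r = 0.39). With CGA, 4 of 33 passed, against 28% of all genes, and the median r was 0.02 against 0.01. Beside POMC and CHGA, these were FOXB1, a transcription factor of the mammillary region (r = -0.56, adjusted p = 0.0258 by permutation), and CACNA1E (r = -0.45, adjusted p = 0.0492 by permutation). Without the 4 calves that lay apart, the r with CGA was -0.36 for FOXB1 (adjusted p = 0.763) and -0.35 for CACNA1E (adjusted p = 0.763).

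**Figure D4:**
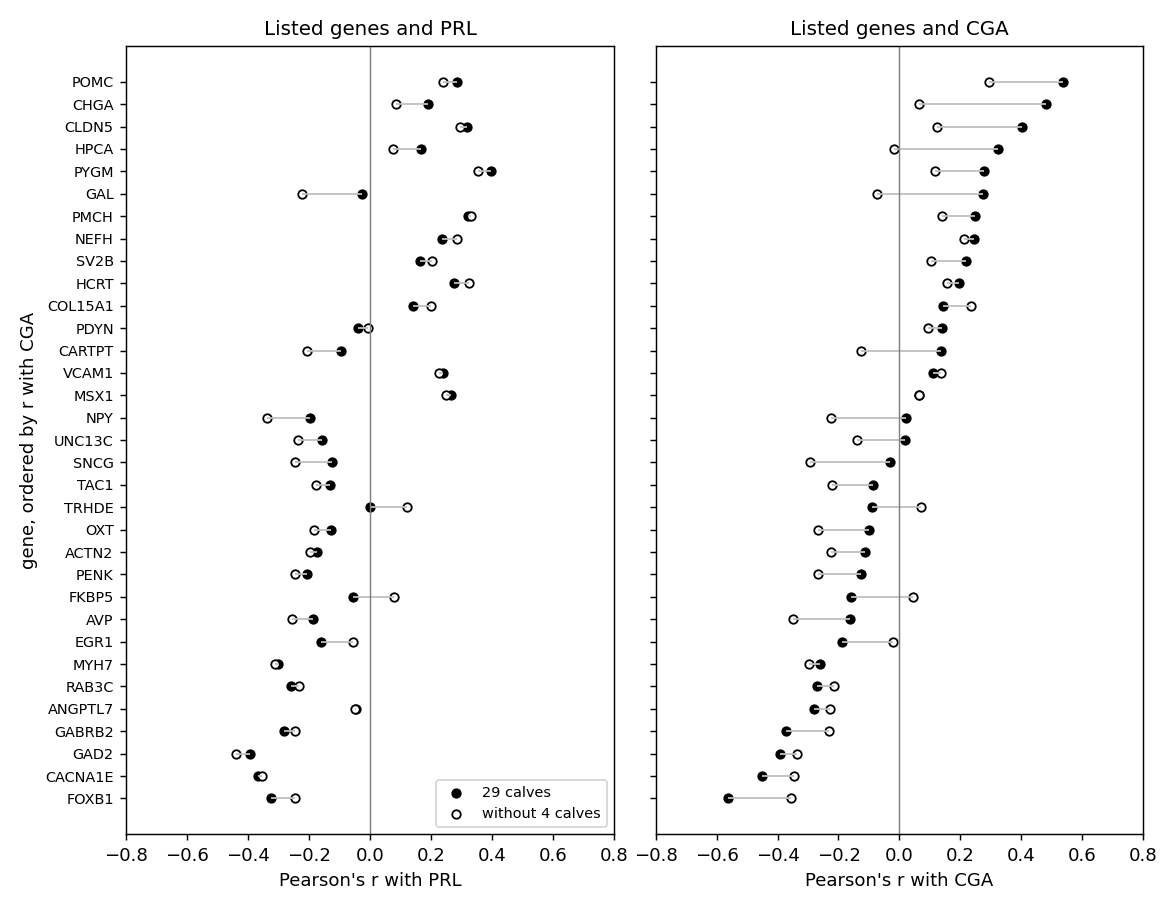
Pearson's r of 33 listed genes with PRL (left) and with CGA (right), ordered by r with CGA, over 29 calves (filled) and without the 4 calves that lay apart (open). POMC and CHGA stand at the top for CGA, at 0.54 and 0.48, and move to 0.30 and 0.06 without the 4 calves, while the values for PRL move less for both.

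By list, the r of the 9 neuronal genes with PRL ran from -0.39 to 0.23 and with CGA from -0.45 to 0.32. The 7 other peptide genes that passed, POMC among them, ran from -0.21 to 0.29 with PRL and from -0.12 to 0.54 with CGA. CLDN5, a tight junction protein of vessels, and VCAM1, an adhesion molecule of activated endothelium, had r = 0.32 and 0.24 with PRL. For connective tissue, COL15A1 and ANGPTL7 had r = 0.14 and -0.05. The 3 muscle genes ran from -0.30 to 0.39 with PRL.

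Between diets, none of the 35 listed genes past the filter was called by limma, with 1, COL15A1, at an unadjusted p-value under 0.05. DESeq2 called AVP and COL15A1, the exact test called COL15A1 alone, and the quasi-likelihood test called none. Between prefixes, the other listed genes had unadjusted p-values of 0.0813 or more by limma, VCAM1 having the lowest. With the total reads of a calf, PRL and CGA had r = 0.23 and 0.20 (permutation p = 0.225 and 0.305). CGA did go with the summed CPM of a calf, which reflects the TMM factor (r = 0.54, permutation p = 0.00189), and PRL had r = 0.35 (permutation p = 0.0595). MOD calf 1689, HI calf 2120 and MOD calf 2551, which lay apart, had the lowest TMM factors, 0.795, 0.829 and 0.875, against 0.958 or more in the others. These r with the summed CPM were not computed without the calves that lay apart. Without the TMM factors, PRL and CGA had r = 0.77 to each other.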

How the data were processed

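RNA-Seq of the remaining hypothalamus of 29 calves was analysed, and diet was taken from the labels. The authors trimmed reads with cutadapt 2.6, aligned them to UMD3.1 with STAR 2.6.1, counted reads per gene and scaled them with edgeR. What was deposited is therefore a signal, CPM by TMM with no low-expression filter. Each value was a whole multiple of 1 read, so that reads were recovered for 100% of values (largest deviation 7.94e-05 reads), at 11820640 to 17206435 per calf. Genes over 1 CPM in 14 or more calves were tested with limma 3.58.1 (R 4.3.3, with a trend) on log2(CPM + 1). Count tests in edgeR 4.0.16 and DESeq2 1.42.0 were run on the recovered reads as alternatives. Genes were called at a fold change over 1.5 and a p-value under 0.10 after adjustment by Benjamini-Hochberg. Correlations were tested with 100000 two-sided permutations, or exactly for 6 calves, and adjusted over all genes for each of PRL and CGA. Distances between calves used the 500 largest log2 differences of each pair. Tests were checked on simulated data. Symbols came from the study's supplementary lists (114 identifiers), as the reference table matched 0 identifiers. Genes named were PRL, CGA, the 5 genes with a symbol nearest to each by Pearson's r, at most 2 identifiers without a symbol in each direction, and a fixed set of 8 peptide, granule and regulator genes. Other listed genes were named after their values were seen. Members and lists were chosen with earlier results of these data known. The comparison of prefixes and the omission of 4 calves were added after the data were seen.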

Additional observations from a re-analysis of the deposited data

How the results depend on the processing

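PRL and CGA were called between diets by none of the alternatives. The log2 fold change ran from 0.82 to 1.88 for PRL and from 0.17 to 0.33 for CGA over 10 alternatives each, and when each calf was left out from 0.68 to 1.09 for PRL and from 0.14 to 0.31 for CGA. The lowest PRL value was reached without MOD calf 1057, 1 of the 2 calves without a PRL read. No gene was called between diets by limma with any calf left out (0 in each of 29 fits), whereas the tagwise exact test in edgeR called 1 gene and DESeq2 called 2 (0.0145%), neither of them PRL or CGA. The cause was not tested. The r of PRL and CGA ran from 0.75 to 0.82 when each calf was left out. It fell short of the threshold of 0.05 in the 18 calves below the gap in PRL (0.34) and the 11 above it (0.36). That split is on PRL itself and narrows its range, which tends to lower r. The threshold was also missed under prefix 6 (0.73) and prefix 8 (0.55), and r turned to -0.068 under prefix 7, with 6 calves each. The F value between prefixes ran from 3.51 to 9.21 for PRL and from 2.77 to 6.22 for CGA when each calf was left out, and from 2.41 to 3.66 and from 2.77 to 3.41 over 3 other alternatives, lowest with 0.1 added before the logarithm, with an adjusted p-value of 0.897 or more in every fit. The paper states that calves were blocked on farm of origin, sire, body weight and age before the diets were allotted. These blocks are not in the labels and the groups share no replicate number, so that no paired or blocked analysis was possible. CGA rests on 3 to 77 reads per calf, which limits what can be said of single calves.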
